A study of Rattus norvegicus with 12 samples.

Results

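The serine and arginine-rich (SR) proteins, the heterogeneous nuclear ribonucleoproteins (hnRNPs), the core proteins of the splicing machinery and the RNA-binding motif proteins were followed by their messenger RNA in heart muscle held at different lengths. Every probe set was taken whose single gene symbol began with Srsf, Hnrnp, Sf3a, Sf3b, Snrp or Rbm. This gave 144 probe sets of 85 genes, out of 31042 probe sets on the array besides 57 controls. RefSeq's rat assembly GRCr8 lists all 85 under the same gene number and symbol, and 1 of them, Srsf7-ps4, is a pseudogene there. A probe set is a group of short oligonucleotides that together read 1 stretch of a transcript. Each gene here therefore had 1 or more separate readings, and intensities were compared between arrays. Between probe sets of 1 gene they served to rank brightness and to form differences, which were again compared between arrays.

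Splicing removes introns from a new transcript and joins its exons. The spliceosome does this with small nuclear RNAs, each carried in a particle with a ring of Sm proteins, which the Snrp genes encode together with proteins particular to 1 particle. The SF3a and SF3b complexes belong to the particle that holds the branch point of the intron. SR proteins mostly favour the use of a nearby splice site and hnRNPs mostly oppose it, so that their balance helps to choose between alternative exons. In heart muscle the RNA-binding motif proteins Rbm20 and Rbm24 are known for the splicing of titin and of other sarcomere transcripts.

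The tissue was the right ventricular papillary muscle, a small column of heart muscle that anchors a valve leaflet, taken from 12 male LBNF1 rats with 1 muscle per animal. Muscles were kept for 12 h in culture at 37 °C and paced at 1 Hz. Mean stretch was aimed at 16% or 4% of slack length, and cyclic shortening at 16% or 4%. The 4 groups of 3 muscles are named by stretch first and shortening second, as high-high, high-low, low-high and low-low. The 9 arrays of all groups but low-low are called the high-input arrays. No group was uncultured or unpaced, so nothing here describes muscle in the animal.

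The low-low arrays stood apart from the other 9 on the whole array. Pearson's r, taken over probe sets that are no replicates of each other, was 0.951 to 0.962 between high-input and low-low arrays and 0.984 to 0.996 among high-input arrays. The mean excess of 3' over 5' signal in the Gapdh and Actb control probe sets, a measure of how evenly transcripts were read along their length, was 3.31 ± 0.51 log2 (SD, n = 9) on high-input arrays and 1.36 ± 0.29 (SD, n = 3) on low-low arrays. Labelled weight, with no unit stated, was 267 to 297 in high-input rats and 305 to 318 in low-low rats. Neither range overlapped between the sets. Labelled age, also without a unit, was 72 to 85 in high-input rats and 75 in all 3 low-low rats, inside the range of the others. Cardiomyocyte markers were bright, with 7 of the 8 listed tested. Of these, 1 was higher and 4 lower on the high-input arrays, and their summed level was 16.19 to 16.30 log2 there and 16.62 to 16.65 log2 on low-low arrays. Of the other markers tested, 2 endothelial ones were higher and 1 lower of 4, and 1 fibroblast marker was higher and 1 lower of 5. Among macrophage markers 1 was higher and 2 lower of 4, and smooth muscle had 1 lower of 3 and skeletal muscle 1 lower of 2. Their summed levels overlapped between the sets in each of these cell types. Cd163, Cnn1, Myh4, Tnnt3, S100a8 and S100a9 were below an intensity of 50 on all arrays. The part of these quantities in the results was not tested except where a covariate is named, and in whole muscle fewer cells of a type and less RNA per cell cannot be told apart.

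Promoters are given for 4 genes whose values, at the probe set of highest mean, did not overlap between the high-input and low-low arrays, so that genes that moved together can be compared. Sf3b5 and Snrpd2 were lower and Snrpd1 and Rbm28 higher in high-input muscle. They are shown as the 120 bases before the transcription start in RefSeq GRCr8, in the direction of transcription. They lie at chr1:9177069-9177188 (plus strand), chr1:87926289-87926408 (plus strand), chr18:1969554-1969673 (plus strand) and chr4:58726969-58727088 (minus strand). Capitals mark matches on either strand to the letters GGGCGG (the GC box), to CCAAT (the CCAAT box), to CCGGAAG (a core bound by ETS factors) and to TATAAA (the TATA box). None of these 4 motifs lies inside another.
Sf3b5: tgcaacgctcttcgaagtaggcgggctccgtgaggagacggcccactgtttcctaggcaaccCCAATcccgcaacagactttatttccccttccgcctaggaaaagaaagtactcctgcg
Snrpd2: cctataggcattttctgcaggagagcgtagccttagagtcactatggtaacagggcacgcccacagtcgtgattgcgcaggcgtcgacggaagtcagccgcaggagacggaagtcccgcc
Snrpd1: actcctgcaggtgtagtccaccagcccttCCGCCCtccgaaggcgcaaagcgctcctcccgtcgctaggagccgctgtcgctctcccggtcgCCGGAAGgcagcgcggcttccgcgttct
Rbm28: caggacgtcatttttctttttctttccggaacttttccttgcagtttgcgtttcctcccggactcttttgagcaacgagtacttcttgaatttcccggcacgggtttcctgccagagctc
Within these bases Sf3b5 had a CCAAT match, and Snrpd1 had a GC box and an ETS core, while Snrpd2 and Rbm28 matched none of the 4. No motif was held by both genes of either direction in the bases shown. In the full window of 300 bases, which runs past the transcription start, the GC box was in Snrpd1, Rbm28 and Snrpd2, and so in both higher genes and 1 of the lower ones. Among members, the window was matched for 75 of the 85 genes. CCAAT was in 50.7% of member promoters, 37.7% of those of tested genes and 37.7% of all 27457 promoters. CCGGAAG was in 26.7%, 18.2% and 9.22% of the same sets. GGGCGG was in 54.7%, 63.1% and 34.9%, and the TATA box in 9.33%, 6.91% and 14.3%. The median GC content was 61% for members, 61% for tested genes and 52.3% for all promoters. These shares are descriptions and were not tested.

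The 3 groups with a high input were first set against the low-low group. Many splicing genes differed, in both directions: Sf3b5, Snrpd2, Hnrnpul1 and 1 reading each of Srsf2 and Rbm39 were lower in the high-input muscles, with differences of -1.84 to -3.04 log2, and Rbm28, Rbmx and 1 reading each of Snrpd1 and Hnrnpa1 were at least 1 log2 unit higher. Of the 144 probe sets, 124 (81 genes) had a mean over all arrays above the filter of 4.91 log2, and 81 of those 124 (65.3%) passed limma's test at an adjusted p of 0.05. The background was high, since 56.1% of all 18625 probe sets tested passed as well. In the higher direction 31 members passed (25%, background 28.6%), and in the lower direction 50 (40.3%, background 27.6%). At 2-fold or more, 10 passed higher and 18 lower, together 22.6% against a background of 16.2%. The members' median difference was -0.11 log2 and that of all probe sets 0.05, with median sizes of 0.51 and 0.41. When the values were quantile normalized again, 39 members passed higher and 43 lower, so the split between directions moved with the scaling. In that setting 55.7% of all probe sets passed, and the median was 0.07 log2 for all and -0.01 for members. The split by direction over all probe sets is not given for it. No member that had passed changed its sign under that scaling.

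**Figure D1:**
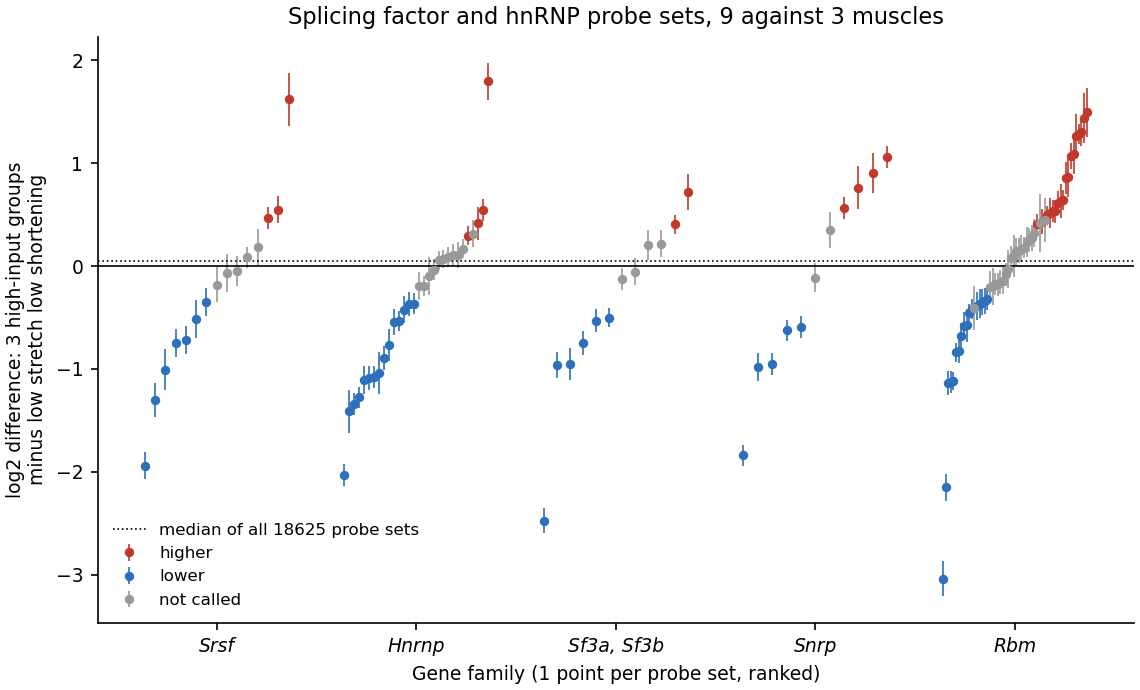
Log2 difference of the 3 high-input groups minus the low-low group for the 124 member probe sets tested, by gene family, with moderated SE bars. Each point is 1 probe set, coloured by whether it passed as higher or lower, and the dotted line is the median of all 18625 probe sets; Srsf, Hnrnp and Sf3 points lie mostly below 0, and Rbm points on both sides.

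Among the families, Srsf had 3 higher and 7 lower of 15 tested (median -0.18 log2), Hnrnp 4 and 15 of 30 (-0.28), Sf3a and Sf3b 2 and 6 of 12 (-0.31), Snrp 4 and 5 of 11 (-0.11), and Rbm 18 and 17 of 56 (0.12). The shares passing in either direction were 66.7%, 63.3%, 66.7%, 81.8% and 62.5% in that order, against 56.1% of all probe sets. The background was 28.6% in the higher direction and 27.6% in the lower. After repeated quantile normalization the medians kept their signs at -0.12, -0.12, -0.20, -0.04 and 0.16. The 9 high-input arrays did not overlap the 3 low-low arrays in 69 of 124 members (55.6%, background 43.1%), with 27 wholly above (background 20.4%) and 42 wholly below (background 22.7%). A further 20 probe sets were too dim to test, among them all those of Srsf7, Rbm4, Rbm11 and Srsf7-ps4, and none of the 20 had a group mean above an intensity of 50. No probe set carried Hnrnpk as its single symbol. Just outside the filter lay a probe set of Hnrnpdl at a mean of 4.77 and one of Sf3b1 at 4.80, and just inside it one of Rbms2 at 5.04 and one of Rbm47 at 5.08.

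The Sm ring and the particle proteins came out in both directions. Snrpd2, which encodes the Sm protein D2, read 9.30, 9.17 and 9.18 log2 in the high-high group, 9.40, 8.99 and 9.17 in the high-low group, 9.23, 9.07 and 9.27 in the low-high group, and 10.98, 11.08 and 11.05 in the low-low group. All 9 high-input values lay below all 3 low-low values, with little spread inside either set, and the difference was -1.84 log2 (SE 0.10, adjusted p = 2.84e-08). Its neighbour in the ring, Snrpd1, read 9.62, 9.80 and 9.76 log2 in the high-high group, 9.88, 9.75 and 9.76 in the high-low group, 9.79, 9.83 and 9.98 in the low-high group, and 8.48, 8.89 and 8.84 in the low-low group with its probe set of highest mean. Here every high-input value lay above every low-low value, and the difference was 1.06 log2 (SE 0.11, adjusted p = 4.04e-06). The other probe set of Snrpd1 gave 0.76 log2 (SE 0.21, adjusted p = 0.00795), in the same direction, but 1 high-input array (6.82) was below the highest low-low array (6.83).

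Of the remaining Sm proteins, Snrpb was 10.14 to 10.49 log2 (median 10.41) on the high-input arrays and 11.56, 11.23 and 11.15 in the low-low group, Snrpf was 8.96 to 9.35 log2 (median 9.13) on the high-input arrays and 9.96, 10.56 and 9.91 in the low-low group, and Snrpe was 10.45 to 10.86 log2 (median 10.65) on the high-input arrays and 11.15, 11.34 and 11.22 in the low-low group. All of them were lower in high-input muscle without overlap, with differences of -0.95 (SE 0.11), -0.98 (SE 0.14) and -0.62 (SE 0.10) log2, with adjusted p of 1.43e-05, 7.87e-05 and 0.000251. Snrpd3 did not pass, at 0.35 log2 (SE 0.17, adjusted p = 0.103), and its low-low values of 9.07, 8.20 and 8.57 spanned nearly 1 log2 unit. Snrpn, a relative of Snrpb that is abundant in brain, was 6.28 to 7.21 log2 (median 6.41) on the high-input arrays and 5.92, 5.50 and 5.68 in the low-low group. It was higher on every high-input array, by 0.90 log2 (SE 0.19, adjusted p = 0.0017). The U2 particle proteins moved apart, with Snrpb2 at -0.59 (SE 0.11) and Snrpa1, its partner on the U2 RNA, at 0.56 (SE 0.10) log2 (adjusted p = 0.000495 and 0.000611). Snrpa, a protein of the U1 particle, did not pass at -0.11 log2 (SE 0.14, adjusted p = 0.536).

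The branch-point complexes held the member with the smallest p. Sf3b5, the smallest subunit of SF3b, read 7.24, 7.80 and 7.74 log2 in the high-high group, 7.72, 7.41 and 7.45 in the high-low group, 7.59, 7.53 and 7.51 in the low-high group, and 10.04, 9.94 and 10.10 in the low-low group. The high-input values all lay more than 2 log2 units below the low-low values, and the difference was -2.47 log2 (SE 0.12, adjusted p = 1.41e-08), the smallest adjusted p of the members. Sf3b3 was 9.31 to 9.76 log2 (median 9.48) on the high-input arrays and 10.39, 10.18 and 10.15 in the low-low group, and Sf3a2 was 8.86 to 9.26 log2 (median 9.09) on the high-input arrays and 9.46, 9.62 and 9.70 in the low-low group. Both were lower without overlap, with differences of -0.75 (SE 0.11) and -0.50 (SE 0.09) log2 (adjusted p = 0.000132 and 0.000662). Sf3b2 was lower with both of its probe sets, at -0.53 (SE 0.11) and -0.95 (SE 0.16) log2 (adjusted p = 0.00175 and 0.000272). Sf3a3, the remaining subunit of SF3a besides Sf3a1, was higher, at 8.21 to 8.65 log2 (median 8.43) on the high-input arrays and 7.89, 8.10 and 8.03 in the low-low group, a difference of 0.40 log2 (SE 0.09, adjusted p = 0.00212). Sf3b1, the large subunit that grips the branch point, did not pass with either of its tested probe sets (-0.12, SE 0.11 and 0.21, SE 0.15 log2, adjusted p = 0.342 and 0.258). Neither did Sf3b4 (0.22) or Sf3b6 (-0.05).

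Of the SR proteins, Srsf2, also known as SC35 and a marker of nuclear speckles, was lower with both probe sets. The brighter one read 11.26, 10.84 and 10.64 log2 in the high-high group, 11.05, 10.69 and 10.66 in the high-low group, 10.76, 10.86 and 10.89 in the low-high group, and 11.66, 11.48 and 11.66 in the low-low group. The other read 7.01 to 7.56 log2 (median 7.18) on the high-input arrays and 9.25, 8.97 and 9.37 in the low-low group. Neither overlapped, and the differences were -0.75 log2 (SE 0.13, adjusted p = 0.000471) and -1.94 log2 (SE 0.13, adjusted p = 1.7e-07). The readings thus shared a direction and differed in size, by 1.19 log2 (SE 0.11, adjusted p = 3.38e-07) between them. Srsf1, which promotes the inclusion of many exons, was 8.98 to 9.52 log2 (median 9.35) on the high-input arrays and 10.22, 9.86 and 9.94 in the low-low group with its brighter probe set. It fell by 0.72 log2 (SE 0.14, adjusted p = 0.000734), and its other probe set by 0.51 (SE 0.19, adjusted p = 0.0329), where 1 high-input value overlapped the low-low range. Srsf6 fell with 2 of its 3 probe sets (-1.30, SE 0.17 and -1.01, SE 0.20 log2, adjusted p = 3.61e-05 and 0.000869). The third gave 0.18 log2 and did not pass, and the brightest differed from it by -1.48 log2 (SE 0.19, adjusted p = 6.23e-06). Srsf9 was close to the threshold at -0.35 log2 (SE 0.14, adjusted p = 0.0495).

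Other SR genes were higher. Srsf5 was 9.58 to 10.46 log2 (median 10.18) on the high-input arrays and 9.66, 9.48 and 9.66 in the low-low group, and Srsf11 was 11.10 to 11.50 log2 (median 11.32) on the high-input arrays and 10.73, 10.90 and 10.96 in the low-low group with its brighter probe set. Their differences were 0.55 log2 (SE 0.13, adjusted p = 0.00318) and 0.47 log2 (SE 0.11, adjusted p = 0.0028), and in Srsf5 the lowest high-input value lay inside the low-low range. The other probe set of Srsf11 gave -0.07 log2 and did not pass, and the pair differed by 0.53 log2 (SE 0.22, adjusted p = 0.0452). Srsf3, the smallest SR protein, read 5.37, 5.32 and 5.29 log2 in the high-high group, 6.09, 5.08 and 6.52 in the high-low group, 5.74, 5.86 and 6.61 in the low-high group, and 4.28, 3.90 and 4.24 in the low-low group. It was higher on every high-input array by 1.62 log2 (SE 0.26, adjusted p = 0.000177), but its low-low mean was under the filter, and with such values raised to the filter the difference was 0.85 log2 (adjusted p = 0.0118). Srsf4 (0.09, SE 0.10) and both readings of Srsf10 (-0.18, SE 0.17 and -0.05, SE 0.14) did not pass.

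Of the 30 hnRNP probe sets tested, 15 passed as lower (50%, background 27.6%), 4 passed as higher (13.3%, background 28.6%) and 11 did not pass. Hnrnpul1, a relative of hnRNP U, read 5.17, 5.08 and 5.0 log2 in the high-high group, 5.09, 4.96 and 5.31 in the high-low group, 4.77, 4.99 and 5.04 in the low-high group, and 7.01, 7.21 and 7.01 in the low-low group. The low-low values stood about 2 log2 units above all the others, which lay close to the filter of 4.91 log2, and the difference was -2.03 log2 (SE 0.10, adjusted p = 1.76e-08). Hnrnpc, which binds uridine tracts on nascent transcripts, was 9.96 to 10.36 log2 (median 10.24) on the high-input arrays and 11.36, 11.56 and 11.74 in the low-low group. Hnrnpl, which binds CA repeats, was 9.70 to 9.95 log2 (median 9.82) on the high-input arrays and 11.32, 11.11 and 10.92 in the low-low group. Both were lower on every high-input array, with differences of -1.34 log2 (SE 0.11, adjusted p = 7.75e-07) and -1.27 log2 (SE 0.10, adjusted p = 6.21e-07). Hnrnpd, also called AUF1 and known for the decay of AU-rich messages, differed by -1.11 log2 (SE 0.13, adjusted p = 2.2e-05). Hnrnpf, which binds G tracts, differed by -1.09 log2 (SE 0.11, adjusted p = 6.26e-06). Hnrnpa2b1 was lower with 3 of its 4 tested probe sets, at -0.89 (SE 0.11), -1.04 (SE 0.20) and -0.36 (SE 0.10) log2, and the fourth gave 0.32 log2 (SE 0.13, adjusted p = 0.0539). Hnrnpu, a nuclear scaffold protein, was lower with 2 of 3, at -0.53 (SE 0.10) and -0.77 (SE 0.16) log2, and the remaining one gave 0.05 log2 (SE 0.09, adjusted p = 0.625). Hnrnph1 (-0.19, SE 0.10), Hnrnpm (-0.20, SE 0.13) and Hnrnpdl (0.07, SE 0.09 and -0.10, SE 0.19) did not pass.

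The Rbm genes were the largest of the families. Of their 56 probe sets tested, 32.1% passed higher and 30.4% lower, near the background of 28.6% and 27.6%. Rbm28, a nucleolar protein, read 9.82, 10.11 and 9.82 log2 in the high-high group, 10.18, 10.14 and 9.63 in the high-low group, 9.78, 9.75 and 10.02 in the low-high group, and 8.46, 8.60 and 8.77 in the low-low group. All high-input values exceeded all low-low values, and the difference was 1.31 log2 (SE 0.13, adjusted p = 5.42e-06). Rbmx, also known as hnRNP G, was 7.71 to 8.49 log2 (median 8.12) on the high-input arrays and 7.38, 6.93 and 6.14 in the low-low group, a difference of 1.26 log2 (SE 0.21, adjusted p = 0.000315) with the low-low values far apart from each other. Rbm12b differed by 1.07 log2 (SE 0.13, adjusted p = 1.67e-05) and Rbm44 by 0.86 log2 (SE 0.16, adjusted p = 0.000618), where Rbm44 had a low-low mean under the filter (0.66 log2 with values raised to it, adjusted p = 0.003). Rbm5, a tumour suppressor that acts on splice site pairing, was higher with 2 of its 3 probe sets (0.64, SE 0.10 and 1.44, SE 0.24 log2, adjusted p = 0.000139 and 0.000315), while the other gave 0.08 log2 (SE 0.12, adjusted p = 0.588). Its paralogue Rbm10 was lower by a smaller amount, with 7.96 to 8.53 log2 (median 8.26) on the high-input arrays and 8.43, 8.68 and 8.71 in the low-low group, a difference of -0.35 log2 (SE 0.13, adjusted p = 0.031) with overlap.

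Among the lower ones, Rbm25, which associates with the U1 particle, was 7.64 to 7.93 log2 (median 7.89) on the high-input arrays and 8.97, 9.03 and 8.86 in the low-low group. Rbm7, part of the complex that brings transcripts to the nuclear exosome, was 5.43 to 5.92 log2 (median 5.79) on the high-input arrays and 6.99, 6.85 and 6.77 in the low-low group. Both fell on every high-input array, by 1.12 log2 (SE 0.09, adjusted p = 7.75e-07) and 1.14 log2 (SE 0.11, adjusted p = 4.03e-06). The other probe set of Rbm7 was too dim to test, with means of 4.47 to 4.69 log2 in the high-input groups and 3.75 in the low-low group. Rbms2 fell with both of its probe sets above an intensity of 50 (-0.84, SE 0.09 and -0.68, SE 0.13 log2), as did Rbm18 (-0.46, SE 0.09 and -0.58, SE 0.16), and Rbm6 differed by -0.42 log2 (SE 0.10, adjusted p = 0.00384).

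The regulators best known in heart muscle gave no single direction. Rbm20, the regulator of titin splicing, read 10.02, 9.79 and 9.79 log2 in the high-high group, 10.05, 9.54 and 9.92 in the high-low group, 9.72, 9.84 and 9.57 in the low-high group, and 9.52, 9.62 and 9.82 in the low-low group with its brighter probe set. These values overlapped between the groups, and the difference was 0.15 log2 (SE 0.12, adjusted p = 0.317). Its other probe set was 7.21 to 7.88 log2 (median 7.56) on the high-input arrays and 8.15, 8.10 and 8.02 in the low-low group, lower without overlap with a difference of -0.58 log2 (SE 0.14, adjusted p = 0.00286). The probe sets differed from each other by 0.73 log2 (SE 0.14, adjusted p = 0.000267). Rbm24, which promotes muscle-type exons, was 11.10 to 11.64 log2 (median 11.36) on the high-input arrays and 11.48, 11.49 and 11.48 in the low-low group with its brighter probe set, which did not pass (-0.08, SE 0.11, adjusted p = 0.57). The dimmer one was 6.66 to 7.04 log2 (median 6.76) on the high-input arrays and 5.48, 5.46 and 5.56 in the low-low group and was higher without overlap by 1.28 log2 (SE 0.10, adjusted p = 3.43e-07). Rbm3, a cold-inducible RNA-binding protein, did not pass, with 11.64 to 12.38 log2 (median 12.20) on the high-input arrays and 12.14, 11.98 and 11.89 in the low-low group and a difference of 0.14 log2 (SE 0.13, adjusted p = 0.382).

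Agreement between probe sets of the same gene was examined in the 28 genes that had 2 or more with a mean above an intensity of 50 (5.64 log2), 69 probe sets in all. In 6 genes (Srsf1, Srsf2, Sf3b2, Snrpd1, Rbms2 and Rbm18) all of them passed in the same direction, and in 8 (Srsf6, Srsf11, Hnrnpa2b1, Hnrnpu, Rbm5, Rbm15, Rbm20 and Rbm24) some passed and all that did shared a direction. In 8 genes (28.6%) probe sets passed in opposite directions, and in 6 (Srsf10, Hnrnpdl, Sf3b1, Rbm26, Rbm34 and Rbms3) none passed. Over all 2009 genes with as many bright probe sets, 19.5% had all of them pass in the same direction (members 21.4%). In 46.3% some passed in 1 direction (members 28.6%), and in 13.8% none did (members 21.4%). Calls in opposite directions were found in 20.4% of the 2009 genes. Genes with more probe sets have more chances to disagree: with exactly 2, the share was 5 of 20 members (25%) and 15.3% of 1565 genes. The range between the probe sets of a gene had a median of 0.82 log2 in members and 0.81 in all genes, and was 1 log2 or more in 39.3% and 41.6%.

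**Figure D2:**
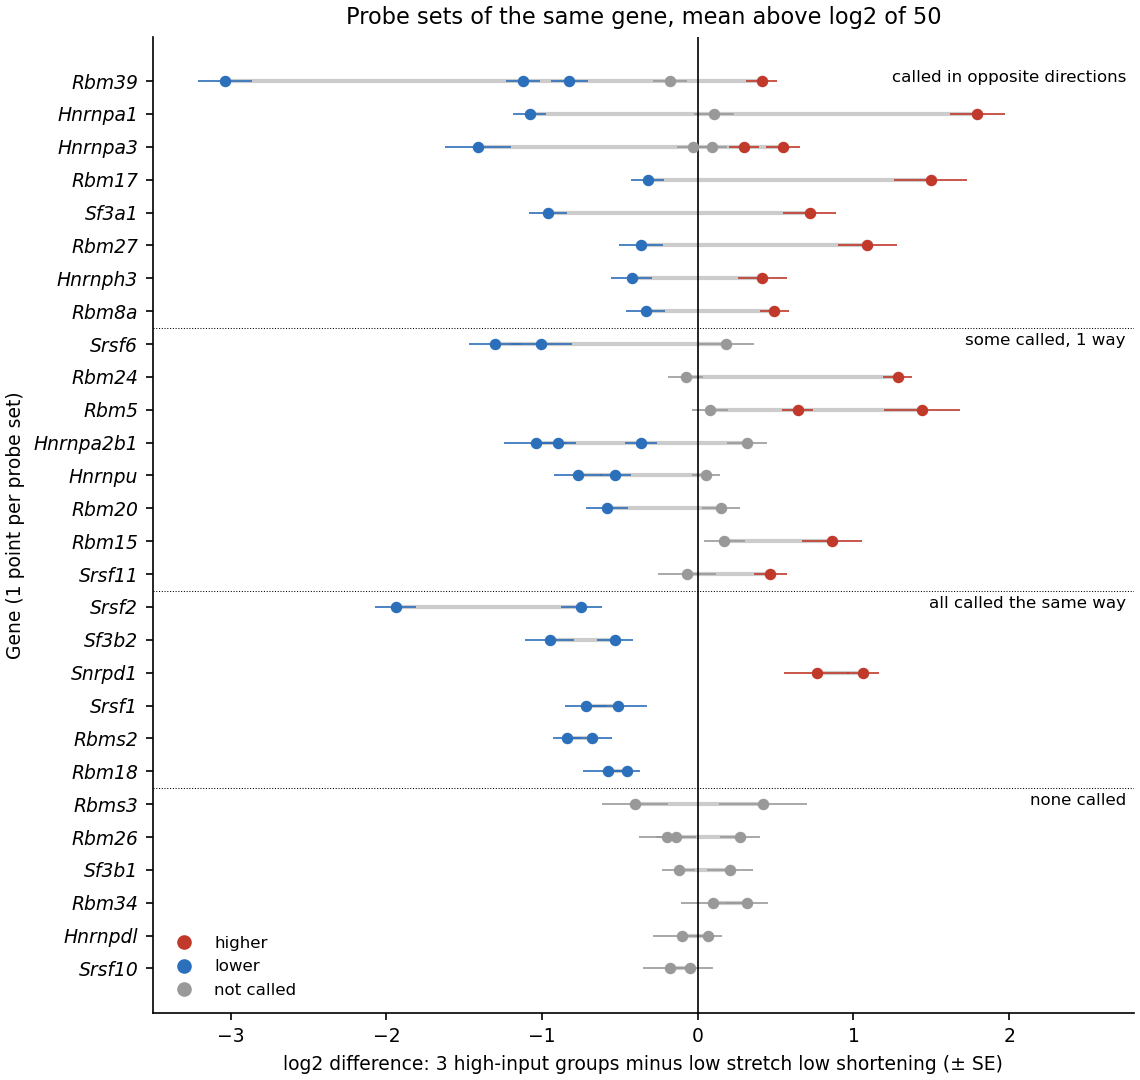
Log2 difference of the 3 high-input groups minus the low-low group for each probe set with a mean above an intensity of 50, in the 28 member genes with 2 or more of them; bars are moderated SE. Points of the same gene on both sides of 0, as in Rbm39, Hnrnpa1 and Sf3a1, are readings that disagree in direction.

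The difference between 2 probe sets of a gene was also tested directly, as the log2 value of the brighter minus the other on each array. Of 41 member pairs, 26 (63.4%, in 19 genes) differed between the high-input and low-low arrays, against a background of 69.6% of 2604 pairs on the array. The share in the splicing genes was near the background.

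Rbm39, a splicing cofactor related to U2AF, showed the widest range, 3.45 log2 over 5 probe sets. Its probe set 1379737_a_at read 7.41, 7.61 and 7.50 log2 in the high-high group, 7.35, 7.07 and 8.04 in the high-low group, 7.44, 7.51 and 7.62 in the low-high group, and 10.36, 10.82 and 10.45 in the low-low group. These low-low values stood far above the rest, and the difference was -3.04 log2 (SE 0.17, adjusted p = 3.63e-08). Probe sets 1381967_at and 1398993_at were also lower, with differences of -1.12 log2 (SE 0.11, adjusted p = 3.24e-06) and -0.82 log2 (SE 0.12, adjusted p = 9.01e-05). A further one, 1399101_at, did not pass at -0.18 log2 (SE 0.11, adjusted p = 0.181). The fifth, 1395092_at, was 8.67 to 9.05 log2 (median 8.80) on the high-input arrays and 8.29, 8.48 and 8.41 in the low-low group and was higher without overlap, by 0.41 log2 (SE 0.10, adjusted p = 0.00357). The brightest probe set, 1381967_at, differed from 1395092_at by -1.54 log2 (SE 0.13, adjusted p = 1.47e-07) and from 1379737_a_at by 1.91 log2 (SE 0.19, adjusted p = 5.02e-07).

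Hnrnpa1, which silences exons, had 3 readings in 3 different patterns. Probe set 1375612_at read 10.96, 10.21 and 10.19 log2 in the high-high group, 10.34, 9.94 and 10.56 in the high-low group, 10.15, 10.30 and 10.45 in the low-high group, and 8.61, 8.70 and 8.34 in the low-low group, higher on all high-input arrays by 1.79 log2 (SE 0.18, adjusted p = 3.63e-06). Probe set 1387872_at read 8.93, 9.33 and 9.12 log2 in the high-high group, 9.12, 9.04 and 9.32 in the high-low group, 9.13, 9.13 and 9.20 in the low-high group, and 10.20, 10.37 and 10.12 in the low-low group, lower on all of them with a difference of -1.08 log2 (SE 0.11, adjusted p = 3.85e-06). The brightest, 1372693_at, overlapped between the groups and gave 0.11 log2 (SE 0.13, adjusted p = 0.502). It differed from 1375612_at by -1.69 log2 (SE 0.15, adjusted p = 1.81e-07) and from 1387872_at by 1.19 log2 (SE 0.16, adjusted p = 1.02e-05). Mammalian genomes hold processed copies of Hnrnpa1, and their part in these readings was not tested.

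**Figure D3:**
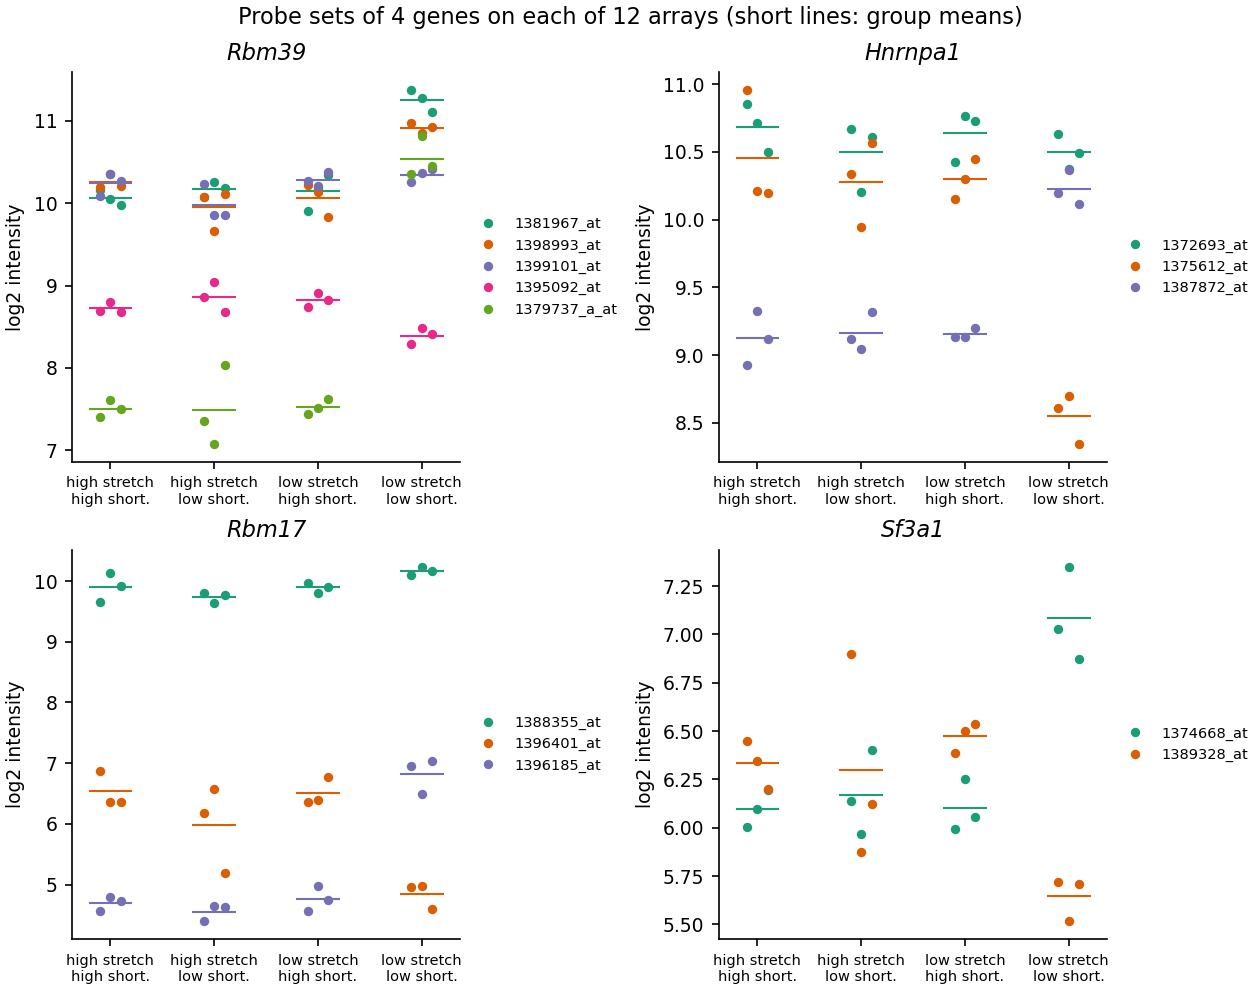
Log2 intensity on each of the 12 arrays for the probe sets of 4 genes, with 3 arrays a group and short lines for group means. In each gene the low-low arrays lie above the other groups with at least 1 probe set and below them with at least 1 other.

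In Rbm17, a factor of alternative 3' splice site choice, 1388355_at was lower with a difference of -0.32 log2 (SE 0.11, adjusted p = 0.0208) and 1396401_at was 5.19 to 6.87 log2 (median 6.37) on the high-input arrays and 4.97, 4.98 and 4.59 in the low-low group, higher by 1.49 log2 (SE 0.24, adjusted p = 0.000182). Probe set 1396401_at started from a low-low mean under the filter and gave 1.39 log2 with values raised to it. A dimmer one, 1396185_at, under an intensity of 50 on average, was 4.40 to 4.97 log2 (median 4.64) on the high-input arrays and 6.95, 6.49 and 7.03 in the low-low group, lower with a difference of -2.15 log2 (SE 0.13, adjusted p = 7.15e-08), or -1.91 log2 with values so raised. Both of these had 1 side near or under the filter. Probe set 1396185_at passed the filter only through its low-low arrays, where it was high, so its test is no independent support for that difference. Sf3a1, a subunit of SF3a, was 5.97 to 6.40 log2 (median 6.10) on the high-input arrays and 7.03, 7.35 and 6.87 in the low-low group with 1 probe set and 5.87 to 6.90 log2 (median 6.39) on the high-input arrays and 5.72, 5.52 and 5.71 in the low-low group with the other. Neither overlapped, with differences of -0.96 log2 (SE 0.12, adjusted p = 3.48e-05) and 0.72 log2 (SE 0.17, adjusted p = 0.00327), and the pair differed by -1.68 log2 (SE 0.20, adjusted p = 4.47e-06).

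Hnrnpa3 was lower with 1394741_at (-1.41 log2, SE 0.21, adjusted p = 0.00011) and higher with 1370872_at (0.55 log2, SE 0.11, adjusted p = 0.00101) and 1388119_at (0.30 log2, SE 0.10, adjusted p = 0.0189), and its brightest probe set gave -0.03 (SE 0.10) log2 without passing. Rbm27 was lower with 1389981_at (-0.36 log2, SE 0.14, adjusted p = 0.0449) and higher with 1391848_at (1.09 log2, SE 0.19, adjusted p = 0.000379). The exon junction protein Rbm8a was higher with 1372829_at (0.49 log2, SE 0.09, adjusted p = 0.000674) and lower with 1384751_at (-0.34 log2, SE 0.13, adjusted p = 0.0389). Hnrnph3 was higher with 1395455_at (0.41 log2, SE 0.16, adjusted p = 0.039) and lower with 1375019_at (-0.43 log2, SE 0.13, adjusted p = 0.0156). In Rbm27, Rbm8a and Hnrnph3 at least 1 of the calls lay close to the threshold. Positions of the probe sets on transcripts are not given in the sources used here, so a splice form, an end of the transcript or a related copy cannot be told apart from each other as the source of a disagreement.

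The groups were then compared in pairs. The comparisons with the low-low group share its 3 arrays, so they are given side by side. In the high-low group 27 members passed higher (background 24.1%) and 45 lower (background 24.4%), together 58.1% against 48.5% of all probe sets. In the low-high group 31 passed higher (background 23.4%) and 43 lower (background 23.6%), together 59.7% against 47%. In the high-high group 29 passed higher (background 23%) and 43 lower (background 24.6%), together 58.1% against 47.6%. Sf3b5 differed in these by -2.50, -2.49 and -2.43 log2, Snrpd2 by -1.85, -1.85 and -1.82, and Rbm28 by 1.37, 1.24 and 1.31. Each of these 9 differences passed. In these genes the differences for either input alone and for both together were close in size.

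The 3 high-input groups were not told apart by any member. High-high minus low-high (stretch at high shortening), high-high minus high-low (shortening at high stretch) and high-low minus low-high had 0 members passing in limma and 0 of all 18625 probe sets (background 0%). At an unadjusted p under 0.05 there were 4, 3 and 7 members of 124, against 661, 811 and 1151 of all probe sets. The median 95% interval of a member, not adjusted for the number of tests, reached 0.34 log2 to either side. Smaller differences were not detectable with these arrays. Larger ones could be missed too, since Rbms3 at -0.93 log2 did not pass. In stretch at high shortening, the smallest p were those of Rbm48 (-0.40 log2, SE 0.15, unadjusted p = 0.023), Sf3a3 (-0.26) and Srsf3 (-0.74, SE 0.31), each with an adjusted p = 1. In shortening at high stretch they were Rbms3 1383069_at (-0.93, SE 0.26, unadjusted p = 0.00388), Rbm34 (0.39) and Srsf5 (0.36), with an adjusted p = 0.999. In high-low minus low-high they were Rbm48 (-0.62, SE 0.15, adjusted p = 0.749), Rbm34 (-0.44) and Rbm26 1393678_at (-0.38).

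Rbms3, a protein that binds single-stranded nucleic acid, had the widest of these differences with probe set 1383069_at. It read 7.30, 7.28 and 7.38 log2 in the high-high group, 7.58, 8.63 and 8.54 in the high-low group, 7.94, 7.48 and 7.98 in the low-high group, and 7.78, 8.44 and 8.36 in the low-low group. The high-high values lay below all high-low values, 2 of which were above all other high-input arrays. Its other probe set read 6.07, 6.93 and 7.42 log2 in the high-high group and 7.19, 8.0 and 7.37 in the high-low group, which overlap. No pair of probe sets of a gene differed between high-input groups either (0 of 41 members and 0 of 2604 pairs in each comparison), and at an unadjusted p under 0.05 there were 0, 0 and 1 member pairs, against 108, 107 and 146 pairs on the array.

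**Figure D4:**
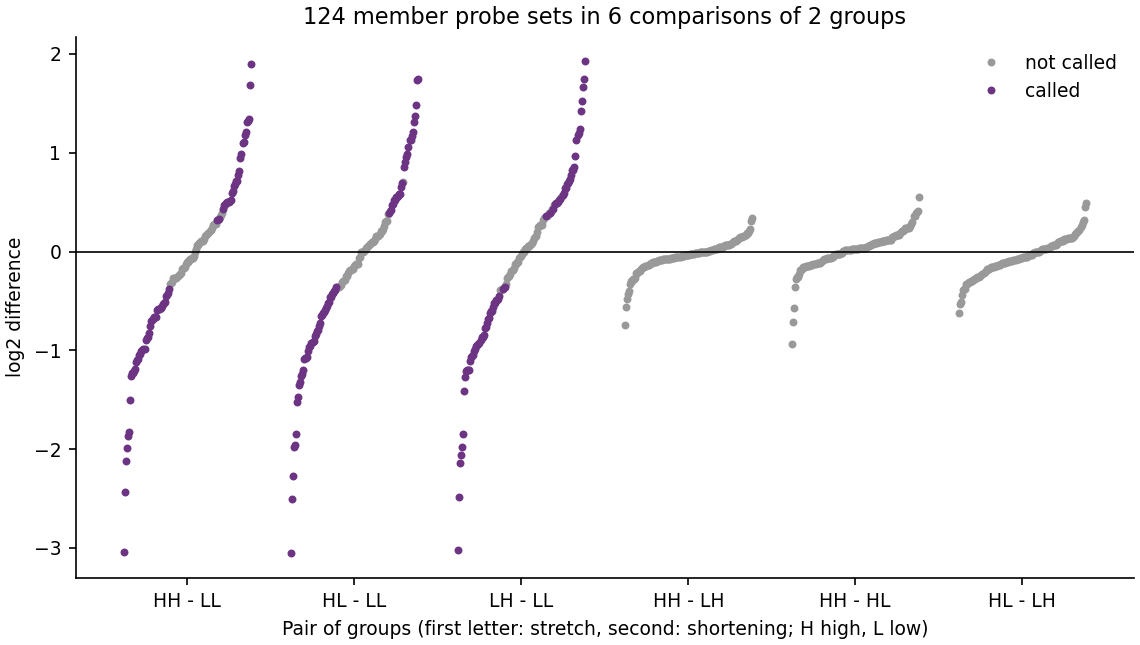
Log2 differences of the 124 member probe sets tested for each pair of groups, with letters for stretch and then shortening (H high, L low); purple points passed limma's test at an adjusted p of 0.05. Comparisons with the low-low group hold 72, 74 and 72 passing members, and those among the other groups hold 0.

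In the factorial reading, where each effect takes in the low-low arrays, the stretch main effect had 15 members higher (background 14.4%) and 36 lower (background 19.2%), together 41.1% against 33.6%. The shortening main effect had 20 higher (background 14.4%) and 34 lower (background 17.1%), together 43.5% against 31.5%. The interaction, the shortening effect at high stretch with that at low stretch subtracted, was positive in 31 (background 17.1%) and negative in 21 (background 15.2%), together 41.9% against 32.3%. All 3 counts include the low-low arrays, and no comparison without those arrays had a passing member.

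Because the low-low arrays differed in the 3' to 5' index and in labelled weight without overlap, the comparison of the high-input groups with the low-low group was repeated with each as a covariate. With the index, 27 members passed (21.8%, all probe sets 18.1%), and 25 of the 81 calls were kept in the same direction. A further 49 kept the sign without passing, and 7 turned it without passing: Srsf6 1383466_at (0.26 log2), Srsf2 1371838_at (0.12 log2), Sf3b2 1388614_at (0.0755 log2), Rbm38 1372271_at (0.48 log2), Hnrnpab 1370309_a_at (0.26 log2), Rbm10 1370356_at (0.30 log2) and Rbm8a 1384751_at (0.17 log2). With weight, 40 members passed (32.3%, all probe sets 28.3%), and 40 of the 81 were kept. The median SE over all probe sets was 0.37 log2 with the index and 0.26 with weight, against 0.13 without a covariate. The index, weight and low-low group cannot be told apart beyond this.

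The calls kept under each covariate alone numbered 21, with 14 lower and 7 higher. The share of calls kept over all probe sets is not given here, so these numbers do not set the splicing genes apart. Sf3b5 gave -2.42 log2 with the index (SE 0.37, adjusted p = 0.00179), Snrpd2 -1.49 and Rbm39 1379737_a_at -3.92. Srsf2 1371839_at gave -0.98, about 1 log2 unit nearer to 0 than without it. Hnrnpul1, Hnrnpc, Hnrnpl, Rbm25, Snrpf, Rbms2 1390032_at, Sf3a1 1374668_at, Hnrnpa1 1387872_at, Rbm39 1381967_at and Rbm17 1396185_at were the other lower ones. The higher ones were Snrpd1 1383107_at, Rbm28, Rbm24 1375160_at, Rbm22 (a protein of the activated spliceosome), Rbm44, Rbm17 1396401_at and Hnrnpa1 1375612_at. Snrpd1 and Snrpd2, and the opposed readings of Hnrnpa1, were thus among the kept calls in both directions. Rbm44 and both kept readings of Rbm17 had 1 side under the filter, and Rbm17 1396185_at was tested only through its low-low values. Rbm17 1388355_at was not kept with the index (adjusted p = 0.222).

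**Figure D5:**
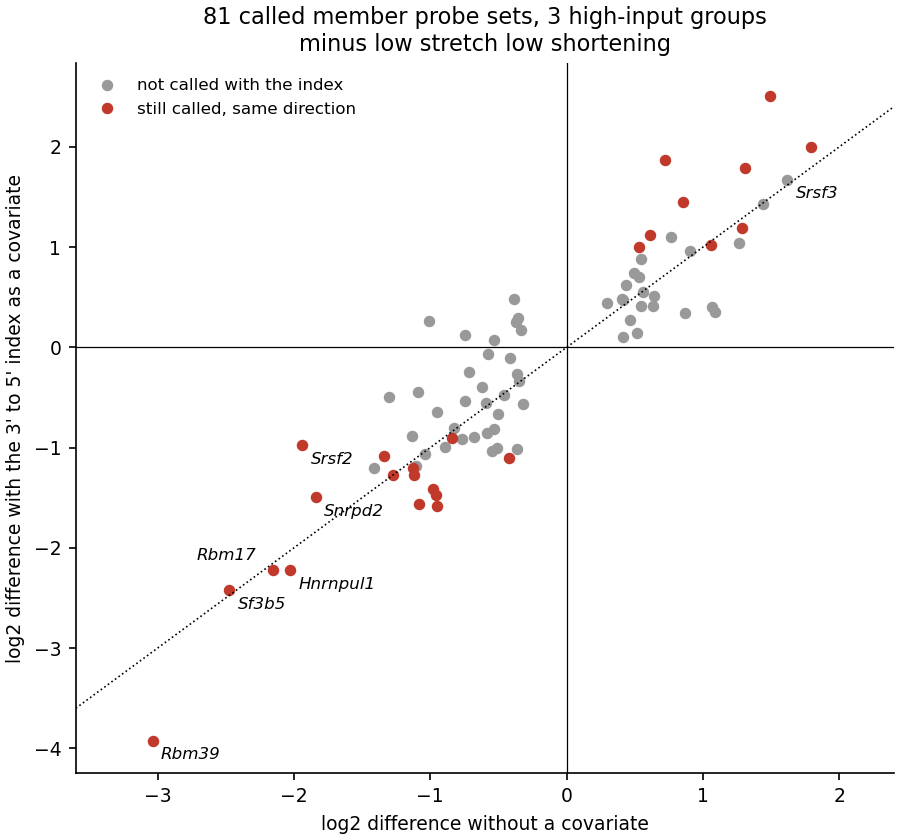
For the 81 member probe sets that passed in the high-input groups minus the low-low group, the log2 difference without the 3' to 5' index (horizontal axis) and with that index in the fit (vertical axis). The 25 kept calls are coloured; most others keep their sign and lose the call.

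Other splicing genes were read at the probe set of highest mean of each gene, for which the background was 56.6% of 10316 genes (27.7% higher, 29% lower). Members read the same way had 21 higher and 33 lower of 81 (66.7%). Of 59 other spliceosome genes tested, 22 were higher and 20 lower (71.2%), with a median of 0.11 log2. Examples were Lsm2 at -2.63 log2 (SE 0.13, adjusted p = 1.42e-08) and Lsm7 at -1.86 log2 (SE 0.12, adjusted p = 1.38e-07), both of the Sm-like ring of the U6 particle. The high-input means of Lsm2 were 4.84 to 4.92 log2, close to the filter of 4.91 log2, against 7.51 log2 in the low-low group. Lsm2 passed the filter mainly through its low-low arrays, where it was high, so its test is no independent support for that difference. With values raised to the filter its difference was -2.55 log2 (adjusted p = 4.28e-09), which does not remove that selection. U2af1, which recognises the 3' splice site, gave 1.28 log2 (SE 0.13, adjusted p = 4.06e-06). Of 33 other RNA-binding splicing regulators, 12 were higher and 9 lower (63.6%, median 0.10 log2). Ptbp1, the polypyrimidine tract binding protein, gave -1.62 log2 (SE 0.15, adjusted p = 2.83e-06), Tra2a, a relative of the SR proteins, -1.46 log2 (SE 0.13, adjusted p = 1.66e-06), and Srrm2, a large scaffold of nuclear speckles, 1.59 log2 (SE 0.16, adjusted p = 4.27e-06). Of 10 kinases and phosphatase regulators that act on SR proteins, 4 were higher and 2 lower (60%, median 0.21 log2), among them Srpk3, a muscle-specific SR protein kinase, at 1.12 log2 (SE 0.13, adjusted p = 1.9e-05) and Clk3 at -0.87 log2 (SE 0.11, adjusted p = 3.36e-05). None of these lists had a gene that passed among the high-input groups.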

How the data were processed

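Messenger RNA of 12 right ventricular papillary muscles was read on Affymetrix expression arrays from 100 ng of total RNA each, labelled with a kit that reads from the 3' end. The deposited log2 intensities had been normalized by the authors with RMA, per the submitters' processing notes; its version was not stated. No further normalization was applied. Groups came from the sample titles, and replicates were muscles of separate rats. Of 31042 probe sets besides 57 controls, 20826 had 1 gene symbol, 436 several and 9780 none. Probe sets with a mean under the 40th percentile (4.91 log2) were left out, which left 18625.

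Group means over all 12 arrays were fitted with limma 3.58.1 (R 4.3.3) and its empirical Bayes moderation. Benjamini-Hochberg adjustment ran over all 18625 probe sets, with a threshold of 0.05; every adjusted p in the text is limma's. Differences between probe sets of a gene were fitted in the same way over 2604 pairs with means above log2 of 50. Python 3.11.15 and matplotlib 3.10.9 drew the figures. On simulated data with planted changes in the high-input groups minus low-low, 20.9% of changes of 0.5 log2, 77.6% of 1 and 98.5% of 2 were recovered among 18625 probe sets, with 8 calls among unchanged ones. The planted changes numbered 67, 67 and 66 by size, whereas 56.1% of all probe sets passed in the data. An adjusted p depends on that share, so these recoveries do not give the detection limits of the tests reported here. Precision is limited by how many arrays there were.

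The members, gene lists, tests and alternatives were chosen with earlier results of these data known. Named were, in each family, up to 6 genes higher and 6 lower by smallest adjusted p, with the probe set of highest mean. Genes with calls in opposite directions, the 3 smallest p of each comparison among high-input groups, a set of well-known splicing genes whatever their values and up to 4 genes of each other list could be named too; some were left out for length. Other genes that the text names, such as Snrpd3, Srsf4 and Rbm22, were added after their values were seen.

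Whether replicate numbers pair the arrays was checked on residuals, and the 18 same-numbered pairs had r of -0.158 to 0.213, so they were treated as unpaired. Alternatives were other filters, the authors' filtered table of 16391 probe sets, 1 probe set a gene, repeated quantile normalization, other variance settings, the replicate number, 3' to 5' index or weight in the model, raised dim values, an adjusted p of 0.1, at least 1.5-fold, and each array left out.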

Additional observations from a re-analysis of the deposited data

Results flagged for a closer look

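The effect of shortening on 52 member probe sets differed between high and low stretch in limma's interaction test, which is 41.9% of the 124 tested against 32.3% of all 18625 probe sets. With the 3' to 5' index in the model 7 members passed, and with labelled weight 13. Among the 52, Sf3b5 had an interaction of 2.56 log2 (adjusted p = 6.43e-06), with a shortening effect of 0.07 at high stretch and -2.49 at low stretch. Hnrnpul1 had 2.11 (-0.03 and -2.14) and Snrpd2 1.88 (0.03 and -1.85). In the other direction, Rbmx had -1.38 (0.04 and 1.42) and Rbm28 -1.30 (-0.07 and 1.24). Srsf3 had -2.49 (-0.57 and 1.93), but its low-low mean was under the filter, and with values raised to the filter the interaction was -1.73 log2 (adjusted p = 0.00939) and the effect at low stretch 1.16. The effect at low stretch is measured against the low-low arrays in each case. No group of 3 was tested for a lone deviating array.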

How the results depend on the processing

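Adjusted for the 3' to 5' index, the count of members passing was 27 in place of 81 for the high-input groups minus low-low, 13 in place of 72 for high-low minus low-low, 30 in place of 74 for low-high, and 36 in place of 72 for high-high. For the stretch main effect it was 13 in place of 51, for the interaction 7 in place of 52, and 15 of 41 probe set pairs differed in place of 26. With labelled weight the counts were 40, 30, 38 and 42 for the same comparisons with low-low, 23 for the stretch main effect and 13 for the interaction. Over all probe sets, the share passing for the high-input groups minus low-low was 18.1% with the index and 28.3% with weight, in place of 56.1%. For the other comparisons that share is not given here. A minimum of 1.5-fold gave 50 for the high-input groups minus low-low, 19 for the stretch main effect and 22 in place of 54 for the shortening main effect. With 1 probe set a gene, 47 of 81 members tested passed for high-high minus low-low, where the main fit had 72 of 124. The share of all probe sets passing at 1.5-fold, and that of all genes for high-high with 1 probe set a gene, are not given here. The index turned the sign of Rbm10 to 0.30 log2 (adjusted p = 0.553), of Srsf2 1371838_at to 0.12 (adjusted p = 0.800), of Rbm8a 1384751_at to 0.17 (adjusted p = 0.769) and of Sf3b2 1388614_at to 0.0755 (adjusted p = 0.880); the cause was not tested.

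Leaving out each array in turn gave 70 to 82 for the high-input groups minus low-low, 65 to 72, 64 to 77 and 64 to 74 for its 3 comparisons, 38 to 44, 41 to 56 and 42 to 53 for the stretch, shortening and interaction effects, 24 to 28 pairs, and 0 among the high-input groups. Replicate numbers did not pair the arrays; as a block they gave 79 members in place of 81, 45, 50 and 45 for the stretch, shortening and interaction effects, and 25 pairs. The other alternatives run kept these counts within 1.5 times. Over 85 named probe sets and 23 settings, 1784 results kept direction and side of the threshold, 125 lost the call, 8 gained one and 4 turned. With 3 arrays a group, small differences among the high-input groups were not detectable, and larger ones could be missed too. Dim probe sets had no usable reading.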
